A study of Homo sapiens with 8 samples.

Results

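The subject is the response to decitabine (DAC) of THP-1 cells that had already become resistant to it. The measured set was every Ensembl gene with at least 1 FPKM (fragments per kilobase of exon, scaled to library size) in at least 2 of the 4 DAC-resistant libraries, which gave 12692 of the 60664 genes in the table. THP-1 was established from a human acute monocytic leukemia. Its DAC-resistant derivative had been selected by repeated pulses of DAC over months and was kept as a line, so that all 4 libraries carry that history, controls included. In the 2 DMSO libraries the resistant cells had received vehicle, and in the 2 DAC libraries 1 µM DAC, for 6 days. Parental THP-1 cells under the same 2 treatments, also with 2 libraries each, serve as the comparison. Labels call the libraries biological replicates. P-values measure the spread between replicate libraries, pooled over the parental and the resistant cultures, and the resistant cells are 1 selected line.

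DAC is a cytidine analogue that enters cells through nucleoside transporters, is phosphorylated first by deoxycytidine kinase, and is built into DNA during replication, where it traps the maintenance methyltransferase DNMT1. Loss of methylation can release transcription of endogenous repeats, whose double-stranded RNA is read by cytoplasmic sensors that switch on interferon-stimulated genes. Cells also answer a shortage of amino acids, heme or protein-folding capacity through phosphorylation of eIF2α and the transcription factor ATF4, and they adjust sterol synthesis through SREBP2 and S phase genes through E2F factors.

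The resistant libraries held 31224588 to 33161479 recovered reads on genes and the parental libraries 28493342 to 32842006. In both resistant groups the replicates differed by more than counting noise, with a mean chi-square of 4.38 per gene in both, so no resistant library was a copy of its replicate. Of 12 monocytic leukemia markers listed for the check, 9 were at 1 FPKM or more in all 4 resistant libraries. They ran from ITGAM (1.57 to 1.93 FPKM) and LYZ (2.88 to 4.88) up to SPI1 (67.4 to 76.1), FCER1G (78.5 to 94.6) and CTSG (272 to 296). The rest, CD14 (0.75 to 1.37), CD68 (0.319 to 1.35) and MPO (0.611 to 1.19), were near the filter. Of 5 T cell markers 3 were at 0 in every resistant library and the sum of all 5 reached 0.167 FPKM at most. B cell markers summed to 1.57 to 2.95 FPKM and epithelial ones to 0.195 or less. Plasma cell markers summed to 6.19 and 6.48 FPKM with DMSO and 6.83 and 7.54 with DAC, mostly JCHAIN, and fibroblast markers, mostly COL1A1, to 6.26 and 6.35 with DMSO and 4.78 and 4.72 with DAC. The part of such cells in the results was not tested. The erythroid markers summed to 3.2 FPKM in DMSO replicate 1 and to 0.251 or less in the other 3 libraries. Mitochondrial mRNAs took 5.14% and 5.26% of the reads with DMSO and 4.41% and 4.68% with DAC.

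DAC changed the resistant cells little in size but in many genes. With limma on log2(FPKM + 1), 869 genes rose and 794 fell at an adjusted p under 0.05, which is 6.85% and 6.26% of the genes measured (5.88% and 5.35% of all 14899 genes fitted). The median size of these 1663 changes was 0.28 on the log2 scale, a fold of 1.21, with quartiles of 0.21 and 0.37, and 88.3% of them were under 0.5. Only 30 changed at least 2-fold on the log2(FPKM + 1) scale. They were 3 protein-coding genes (TRIB3, ORM1 and RGS16), 9 raised and 14 lowered small RNAs, 3 immunoglobulin genes and 1 pseudogene. This scale shrinks folds of low genes, so that TBX15, with means of 5.57 and 11.98 FPKM, is not among them at 0.98. The median over all genes measured was 0.01. Some genes were measured through 1 group only, 158 through the DAC libraries and 124 through the DMSO libraries, so that the filter itself set the direction in the 26 of them that rose and the 23 that fell. In 1659 of the 1663, both DAC libraries lay on the same side of both DMSO libraries on all 5 scales checked, the deposited FPKM and 4 rescalings of it. Over all genes measured, called or not, the groups did not overlap on the deposited scale in 7603 (59.9%). For a single gene the exact permutation test of 2 against 2 libraries cannot give a two-sided p below 0.333, and each call draws on a spread estimated jointly over genes and over all 8 libraries. With the 4 resistant libraries alone, 231 rose and 195 fell, of which 221 and 185 were among the calls above. Leaving out 1 library gave 270 and 322 (without DAC replicate 1), 213 and 224 (without DAC replicate 2), 258 and 218 (without DMSO replicate 1), and 301 and 306 (without DMSO replicate 2), with no gene called in the opposite direction in any of these fits. Further on, counts for a list without 1 library are given in this order of libraries. Counts of calls on any list are to be read against 6.85% raised and 6.26% lowered over all genes. Of the 127 genes named by rule, 63 lost a call with the 4 resistant libraries alone. The share of rises among the calls was 52.3%. It was 66.0% after rescaling to TPM and 67.9% after rescaling over protein-coding genes, which shifted the median of all genes to 0.035 and 0.043.

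The list with the most rises held genes of the integrated stress response, the program that ATF4 drives. Of 45 measured members, 26 rose and 19 did not pass the test, with a median of 0.23 over all of them against 0.01 over all genes. The median lay between 0.22 and 0.26 in the 4 pairings of a DAC with a DMSO library. The list had 17 rises without DAC replicate 1, 15 without DAC replicate 2, 16 without DMSO replicate 1 and 17 without DMSO replicate 2. Some settings also called falls, with 29 rises and 5 falls under voom on recovered reads. There were 28 and 2 at a mean of at least 5 FPKM, and 26 and 1 after GC adjustment. TRIB3, a pseudokinase target of ATF4 and CHOP at chr20:362835-397559 (GRCh38), was at 50.5 and 45.5 FPKM with DMSO and 156 and 146 FPKM with DAC. Both DAC values are well above both DMSO values, with a log2 difference of 1.63 ± 0.073 SE, adjusted p = 0.0003. PCK2, the mitochondrial form of phosphoenolpyruvate carboxykinase, stood at 11.7 and 12.5 FPKM with DMSO and 21.98 and 22.8 FPKM with DAC, a difference of 0.84 ± 0.057 SE, adjusted p = 0.0011. DDIT4, an mTORC1 inhibitor, had 72.2 and 72.4 FPKM with DMSO and 110.1 and 106 FPKM with DAC and a difference of 0.57 ± 0.030 SE, adjusted p = 0.00054. SESN2, a leucine-responsive mTORC1 inhibitor that is also a p53 target, had 12.7 and 11.8 FPKM with DMSO and 19.02 and 18.4 FPKM with DAC and differed by 0.57 ± 0.054 SE, adjusted p = 0.0025. In all 4 genes the DAC libraries lay above the DMSO libraries, and in 59.9% of all genes measured the groups did not overlap.

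ATF4 mRNA itself went from 243 and 235 to 287 and 285 FPKM, a difference of 0.26 ± 0.025 SE, adjusted p = 0.0025. Its dimer partner CEBPG rose from 64.7 and 65.5 to 94.96 and 93.5 FPKM (log2 difference 0.53), and DDIT3, which encodes CHOP, rose from 25.1 and 24.00 to 34.8 and 35.7 FPKM (0.50). Of the enzymes of serine and one-carbon metabolism on the list, PSAT1 (0.37), MTHFD2 (0.29) and ALDH1L2 (0.30) rose, while PHGDH (-0.08, adjusted p = 0.21), PSPH (0.06, adjusted p = 0.55) and SHMT2 (0.21, adjusted p = 0.074) did not pass the test. Rises among the amino acid transporters were SLC7A11 (0.28), SLC38A2 (0.25), SLC7A5 (0.24) and SLC1A5 (0.22). Of 12 tRNA synthetases 4 rose, WARS1 (0.42), AARS1 (0.23), IARS1 (0.21) and GARS1 (0.20), with adjusted p-values from 0.0011 to 0.036. The other 8 did not pass and lay between -0.14 (CARS1) and 0.12 (LARS1). CHAC1, which degrades glutathione, rose from 41.3 and 39.8 to 48.99 and 48.5 FPKM (0.26, adjusted p = 0.022). The separate list of ABC and SLC transporters had 6 rises among 17 members, of which SLC7A11, SLC38A2, SLC7A5 and SLC1A5 are on the ATF4 list too and the glucose transporter SLC2A3 (0.34) is not. Without 1 library that list had 2, 2, 1 and 1 rises.

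Promoter sequence was set beside these values for list members with a RefSeq promoter entry (GRCh38.p14, 27305 genes, the first start site per gene, 250 bases before to 50 after it). The 9 letters TGATGNAAN, a core of composite C/EBP-ATF elements, were searched on both strands. They occurred in 9 of 35 such promoters of the list (25.7%), against 3.67% of all promoters, and in 3 of the 21 whose gene rose. The match was thus less frequent among the genes that rose than over the list. Most of the 9 matches lay in promoters of genes that did not pass the test. These 3 are printed to show the match in genes that rose, each as a stretch of 160 bases that ends 0 to 70 bases ahead of the start site, 5′ to 3′ on the gene's strand, with the matched letters in capitals. CHAC1 lies at chr15:40953241-40953400 on the plus strand, AARS1 at chr16:70289555-70289714 on the minus strand and IARS1 at chr9:92293698-92293857 on the minus strand, and all 3 matches read in the reverse orientation.
CHAC1: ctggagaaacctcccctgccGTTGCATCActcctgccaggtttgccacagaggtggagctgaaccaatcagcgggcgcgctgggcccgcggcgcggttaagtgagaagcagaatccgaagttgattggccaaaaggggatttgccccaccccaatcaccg
AARS1: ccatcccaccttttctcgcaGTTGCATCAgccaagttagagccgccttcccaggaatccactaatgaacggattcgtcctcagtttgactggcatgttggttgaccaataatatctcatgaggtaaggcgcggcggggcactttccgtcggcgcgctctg
IARS1: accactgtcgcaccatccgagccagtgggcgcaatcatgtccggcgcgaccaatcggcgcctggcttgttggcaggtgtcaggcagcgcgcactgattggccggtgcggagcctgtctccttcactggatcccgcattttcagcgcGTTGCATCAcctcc
All 3 hold the same run, GTTGCATCA, in an otherwise different neighbourhood. A match of letters is a description of the sequence and was not tested as a site.

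**Figure D1:**
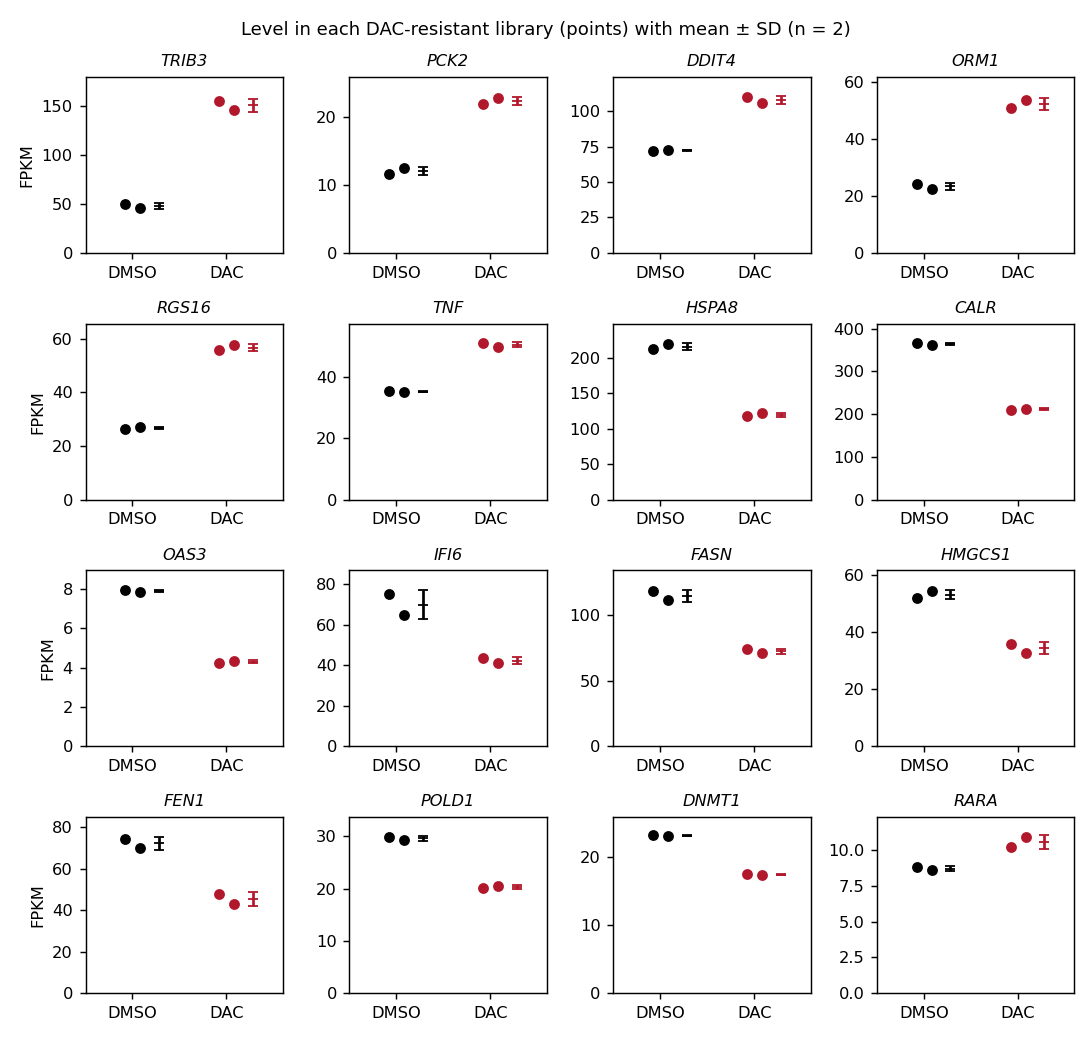
FPKM in each DAC-resistant library for 16 genes, with 2 DMSO libraries as black points, 2 DAC libraries as red points and the mean ± SD (n = 2) beside each pair. In every panel the groups do not overlap, which held for 59.9% of all genes measured. The largest fold is in TRIB3, at 50.5 and 45.5 FPKM with DMSO against 156 and 146 FPKM with DAC.

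The other large rises came from genes outside that list. ORM1, an acute-phase plasma glycoprotein, was at 24.2 and 22.6 FPKM with DMSO and 50.7 and 53.8 FPKM with DAC, a log2 difference of 1.13 ± 0.082 SE, adjusted p = 0.0013. It has a near-identical neighbour, ORM2, so the split of reads between them is uncertain. RGS16, a GTPase activator that dampens G protein signalling, went from 26.4 and 26.9 to 55.8 and 57.7 FPKM (1.06 ± 0.047 SE, adjusted p = 0.0003). The T-box factor TBX15 rose from 5.72 and 5.42 to 12.2 and 11.8 FPKM (0.98 ± 0.052 SE, adjusted p = 0.00054), and RBCK1, a subunit of the linear ubiquitin ligase complex that lies close to TRIB3 on chromosome 20 (chr20:407498-432139), rose from 22.1 and 23.1 to 38.9 and 37.9 FPKM (0.74 ± 0.036 SE, adjusted p = 0.00043). In the mid-range were PLD6, a mitochondrial phospholipase with 4.41 and 4.18 FPKM with DMSO and 7.95 and 8.498 FPKM with DAC (0.80), SPNS3, a lysosomal-type transporter family member (0.77), and ADM2, a peptide hormone of the calcitonin family (0.72).

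Most calls among interferon-stimulated genes went the other way, downward. Of 70 measured members, 39 fell, 2 rose and 29 did not pass the test, with a list median of -0.25 (-0.26 to -0.23 over library pairs). OAS3, which makes the 2′-5′ oligoadenylate that activates RNase L, was at 7.93 and 7.86 FPKM with DMSO and 4.26 and 4.36 FPKM with DAC, a difference of -0.74 ± 0.040 SE, adjusted p = 0.00054. IFI6, an interferon-induced mitochondrial and ER membrane protein, was at 74.9 and 64.8 FPKM with DMSO and 43.4 and 41.02 FPKM with DAC, a difference of -0.71 ± 0.069 SE, adjusted p = 0.0026. OAS2 fell from 10.4 and 10.3 to 6.54 and 6.09 FPKM (-0.63) and IRF7, a transcription factor of the interferon response, from 8.33 and 8.51 to 5.36 and 4.76 FPKM (-0.64). The ubiquitin-like modifier ISG15 was at 26.8 and 25.2 FPKM with DMSO and 19.2 and 15.7 FPKM with DAC and fell by 0.56 ± 0.116 (SE, adjusted p = 0.031), while IFI44 fell from 15.2 and 16.7 to 12.4 and 12.6 FPKM (-0.32) and IFI27 from 6.95 and 6.54 to 5.304 and 4.87 FPKM (-0.35). The groups do not overlap for any of these 7 genes, which held for 59.9% of all genes measured. PSMB9, a subunit of the immunoproteasome, rose from 14.7 and 13.9 to 17.1 and 17.6 FPKM (0.26) and NMI, an interferon-inducible adaptor, rose from 12.5 and 10.7 to 17.3 and 16.3 FPKM (0.50). They are the only rises called within the list in this fit. Without 1 library the rises numbered 0, 1, 1 and 1, and with the 4 resistant libraries alone 0. Leaving out a library gave 24 falls (without DAC replicate 1), 15 (without DAC replicate 2), 16 (without DMSO replicate 1) and 19 (without DMSO replicate 2), and the 4 resistant libraries alone gave 11 falls.

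Among 15 genes of double-stranded RNA sensing, 5 fell. They were IRF7, DHX58 (-0.33), STING1, the DNA-pathway adaptor (-0.27), the kinase EIF2AK2 (-0.19) and the sensor IFIH1, which went from 13.5 and 13.5 to 11.9 and 11.6 FPKM (-0.18, adjusted p = 0.024). Its adaptor MAVS had 17.005 and 15.9 FPKM with DMSO and 15.5 and 15.1 FPKM with DAC and did not pass the test (adjusted p = 0.23). IRF7, DHX58, EIF2AK2 and IFIH1 are on the interferon list as well. Without 1 library the falls numbered 2, 3, 2 and 2, and with the 4 resistant libraries alone 2. RIGI, the sensor encoded by the former DDX58, stayed under the filter at 0.199 and 0.215 FPKM with DMSO and 0.197 and 0.151 with DAC, from 65, 67, 65 and 48 recovered reads. TLR3 had 0 reads in 3 libraries and 1 read in DAC replicate 2. MX1, also under the filter, was at 0.115 and 0.126 against 0.141 and 0.116 FPKM, and its groups overlapped.

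The 9 letters GAAANNGAA, the core of the interferon-stimulated response element, were present on either strand in 35 of 54 promoters of the list (64.8%), against 8.29% of all promoters. Of the 32 called members with an entry, 24 held it. Shown here, with the matches in capitals, are OAS3 at chr12:112938311-112938470 on the plus strand, IFI6 at chr1:27672209-27672368 on the minus strand and ISG15 at chr1:1013337-1013496 on the plus strand, called members with large changes whose matches lie ahead of the start site.
OAS3: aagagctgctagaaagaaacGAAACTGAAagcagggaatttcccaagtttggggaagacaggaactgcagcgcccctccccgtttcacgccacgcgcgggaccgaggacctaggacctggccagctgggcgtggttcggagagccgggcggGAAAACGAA
IFI6: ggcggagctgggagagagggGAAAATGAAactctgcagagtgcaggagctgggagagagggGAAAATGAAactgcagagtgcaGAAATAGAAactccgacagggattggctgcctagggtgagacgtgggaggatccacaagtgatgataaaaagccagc
ISG15: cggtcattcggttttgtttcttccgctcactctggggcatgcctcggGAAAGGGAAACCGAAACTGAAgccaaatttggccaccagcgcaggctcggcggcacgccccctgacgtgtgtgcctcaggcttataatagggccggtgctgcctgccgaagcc
IFI6 has 3 separate matches, OAS3 has 2, and the 3 matches of ISG15 overlap in a single run.

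Sterol and fatty acid synthesis genes fell nearly as a block. Of 29 measured members 21 fell, the other 8 did not pass the test, and all 29 had a negative difference, with a median of -0.29. Without DAC replicate 1, DAC replicate 2 or DMSO replicate 1 the falls numbered 13 each time, and without DMSO replicate 2 they numbered 15. MVD, mevalonate diphosphate decarboxylase, was at 11.4 and 10.7 FPKM with DMSO and 6.37 and 5.91 FPKM with DAC, a difference of -0.75 ± 0.087 SE, adjusted p = 0.005. FASN, fatty acid synthase, was at 118 and 111 FPKM with DMSO and 73.8 and 70.7 FPKM with DAC (-0.66 ± 0.036 SE, adjusted p = 0.00059). HMGCS1, an early enzyme of the mevalonate pathway, fell from 52.1 and 54.5 to 35.9 and 32.9 FPKM (-0.62). Later steps fell as well, FDFT1 by 0.55, LSS by 0.56 and SQLE by 0.33, as did the SREBP regulator INSIG1 (-0.36). ACSS2, which makes acetyl-CoA from acetate, was not on the list and fell from 29.8 and 27.9 to 17.8 and 17.6 FPKM (-0.67 ± 0.057 SE, adjusted p = 0.0019). The 9 letters ATCACCCCA, a sterol regulatory element, occurred in 1 of 22 promoters of the list and 0.194% of all, and in 0 of the 15 called members in this window.

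DNA replication genes fell with a similar median. Of 48 measured members 25 fell and 23 did not pass, with a list median of -0.24 (-0.27 to -0.21 over library pairs). FEN1, the flap endonuclease that processes Okazaki fragments, was at 74.6 and 69.9 FPKM with DMSO and 47.7 and 43.2 FPKM with DAC, a difference of -0.66 ± 0.051 SE, adjusted p = 0.0014. POLD1, the catalytic subunit of polymerase δ, was at 29.97 and 29.3 FPKM with DMSO and 20.1 and 20.6 FPKM with DAC (-0.52 ± 0.029 SE, adjusted p = 0.00061). MCM10 fell by 0.51 and RFC2, a clamp loader subunit, by 0.42. The helicase subunits MCM2 to MCM7 fell by 0.21 (MCM6) to 0.42 (MCM4), and the clamp PCNA by 0.32. Falls on the list numbered 19 without DAC replicate 1, 14 without DAC replicate 2, 16 without DMSO replicate 1, 17 without DMSO replicate 2, and 16 with the 4 resistant libraries alone. The transcription factor E2F1 went from 13.2 and 12.3 to 9.59 and 9.47 FPKM (-0.39). In the 50 genes of DNA damage response and repair, 13 fell and 2 rose, with RAD54L (-0.58), XRCC2 (-0.49) and UNG, which removes uracil from DNA (-0.43), the largest falls, and NBN the larger of the rises (0.42). Its falls numbered 5, 5, 6 and 5 without 1 library and 5 with the 4 resistant libraries alone. Calls among mitotic genes went both ways. Of 57, 8 rose and 6 fell around a median of 0.01, against 6.85% raised and 6.26% lowered over all genes. SKA1 (0.46) and HMMR (0.34) were up and CENPM (-0.35) and SPC24 (-0.33) down. Without 1 library the rises numbered 3, 3, 3 and 4 and the falls 3, 3, 2 and 4. The 4 resistant libraries alone gave 2 rises and 0 falls, and voom on recovered reads gave 14 and 6.

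The 8 letters TTTGGCGC, an E2F core, occurred on either strand in 8 of 42 promoters of the replication list (19%) and in 0.659% of all promoters. Of the 22 called members with an entry, 7 held it. Shown in the same way are E2F1 at chr20:33686386-33686545 on the minus strand and the catalytic subunits of polymerases ε and α, POLE at chr12:132687343-132687502 on the minus strand and POLA1 at chrX:24693758-24693917 on the plus strand.
E2F1: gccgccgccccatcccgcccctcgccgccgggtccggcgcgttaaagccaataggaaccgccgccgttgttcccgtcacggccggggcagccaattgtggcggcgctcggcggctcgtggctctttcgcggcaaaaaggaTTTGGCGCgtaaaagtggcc
POLE: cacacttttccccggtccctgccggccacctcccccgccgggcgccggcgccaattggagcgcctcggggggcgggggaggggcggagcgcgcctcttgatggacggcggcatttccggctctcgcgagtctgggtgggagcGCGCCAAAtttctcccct
POLA1: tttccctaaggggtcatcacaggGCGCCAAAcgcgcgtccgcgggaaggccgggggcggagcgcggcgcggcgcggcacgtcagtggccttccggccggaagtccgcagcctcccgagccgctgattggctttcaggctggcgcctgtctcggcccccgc
POLE fell from 6.74 and 7.08 to 5.41 and 5.01 FPKM (-0.35) and POLA1 from 5.196 and 5.41 to 4.15 and 3.81 FPKM (-0.34).

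DNMT1, the enzyme DAC traps, was at 23.2 and 23.1 FPKM with DMSO and 17.5 and 17.3 FPKM with DAC, with groups that do not overlap and a difference of -0.39 ± 0.027 SE, adjusted p = 0.0012. Its partner UHRF1, which reads hemimethylated DNA, fell from 33.5 and 32.6 to 26.2 and 26.5 FPKM (-0.31), and MBD3 fell by 0.38, while TET3, a demethylating dioxygenase, rose by 0.21. Of the 17 genes on the methylation list 1 rose and 3 fell, against 6.85% raised and 6.26% lowered over all genes. Without 1 library the methylation list had 0, 0, 0 and 1 rises and 2, 2, 2 and 3 falls. The de novo enzymes DNMT3A (4.61 and 4.304 FPKM with DMSO and 4.81 and 4.66 FPKM with DAC) and DNMT3B (3.02 and 3.12 FPKM with DMSO and 2.79 and 3.31 FPKM with DAC) did not pass the test (adjusted p = 0.46 and 0.97), and in DNMT3B the groups overlap. Of 20 repeat silencing genes 5 fell, led by the heterochromatin protein CBX1 (-0.44) and including TRIM28, the corepressor of KRAB zinc fingers (-0.20). Its falls numbered 1, 1, 2 and 1 without 1 library, and TRIM28 lost its call after GC adjustment (-0.13, adjusted p = 0.14). Among genes of DAC uptake and metabolism, the activating kinase DCK was at 23.2 and 23.9 FPKM with DMSO and 21.4 and 22.7 FPKM with DAC (adjusted p = 0.28) and the nucleoside transporter SLC29A1 at 44.6 and 43.6 FPKM with DMSO and 43.2 and 42.4 FPKM with DAC (adjusted p = 0.4), so neither passed. SAMHD1, which hydrolyses the active triphosphate, fell from 36.9 and 36.1 to 32.2 and 31.9 FPKM (-0.18). The ribonucleotide reductase subunits RRM1 (-0.28) and RRM2 (-0.26) fell too, both also being on the replication list. NT5C3A, a pyrimidine 5′-nucleotidase, rose from 16.04 and 15.7 to 20.02 and 20.01 FPKM (0.32), and the kinase CMPK1 (0.15) and the deaminase DCTD (0.18) rose by less. In all, 3 of the 18 genes on this list rose and 3 fell, against 6.85% raised and 6.26% lowered over all genes. Without 1 library this list had 1, 1, 1 and 1 rises and 2, 1, 1 and 2 falls. CDA, which inactivates DAC by deamination, was at 0.27 and 0.568 FPKM with DMSO and 1.15 and 0.677 with DAC, from 7, 14, 30 and 17 reads. It was under the filter and did not pass in the fit without one (adjusted p = 0.44).

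Falls were frequent among heat shock genes. Of 21 heat shock genes 12 fell and 1 rose, with a median of -0.26. HSPA8, the constitutive HSP70, was at 213 and 219 FPKM with DMSO and 118 and 121 FPKM with DAC, a difference of -0.85 ± 0.026 SE, adjusted p = 0.00016. HSPB1 fell from 220.5 and 208 to 142 and 138 FPKM (-0.61), HSP90AA1 from 209 and 211 to 154 and 154 FPKM (-0.44) and HSPA1B by 0.61, though HSPA1B shares nearly all its sequence with HSPA1A and HSPA8 has processed pseudogenes, so some of their reads may be split. HSPA9, of the mitochondrial matrix, rose from 48.5 and 50.2 to 73.4 and 73.9 FPKM (0.57 ± 0.025 SE, adjusted p = 0.0003). In the endoplasmic reticulum, 8 of 26 chaperone and unfolded protein response genes fell and 3 rose. CALR, calreticulin, was at 365 and 362 FPKM with DMSO and 210.4 and 213 FPKM with DAC (-0.78 ± 0.020 SE, adjusted p = 8e-05), SDF2L1 at 17.3 and 17.7 FPKM with DMSO and 11.2 and 10.2 FPKM with DAC (-0.66), and MANF, PDIA4 and HSPA5 (BiP) fell by 0.45, 0.29 and 0.21. HERPUD1 (0.34) and SEL1L (0.26), which act in degradation of ER proteins, rose. Without 1 library the falls on this list numbered 8, 5, 5 and 7 and the rises 3, 2, 2 and 3. TMED9, a cargo receptor between the ER and Golgi, had 40.7 and 38.8 FPKM with DMSO and 21.8 and 20.5 FPKM with DAC, the largest fall among protein-coding genes of at least 5 FPKM (-0.88 ± 0.056 SE, adjusted p = 0.00093). BMP8B, a BMP ligand (-0.68), and MYBPH, a myosin-binding protein (-0.67), complete the 10 largest falls.

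Mitochondrial and translation genes moved by less. Of 13 mitochondrially encoded mRNAs 6 fell, with MT-CO1 at 8891 and 9152 FPKM with DMSO and 7200.4 and 7539.5 FPKM with DAC (-0.29) and a list median of -0.20 that ranged from -0.24 to -0.03 across scalings and other settings. Its falls numbered 0 with no filter and with the 4 resistant libraries alone, 2 without DAC replicate 1, 5 without DAC replicate 2, 1 without either DMSO library, 2 under quantile normalization, where MT-CO3 changed sign, and 11 with voom. Nuclear respiratory chain genes had 2 rises and 6 falls among 75 (NDUFB6 -0.46, SDHA -0.30), against 6.85% raised and 6.26% lowered over all genes. The falls numbered 1, 0, 1 and 2 without 1 library and the rises 0, 0, 1 and 0. Of 79 cytosolic ribosomal protein genes 11 rose, the largest change being 0.18 (RPL12), with many of these genes sharing sequence with pseudogenes, around a median of 0.04. Its rises numbered 1 without DAC replicate 1, 0 without DAC replicate 2, 1 without DMSO replicate 1, 2 without DMSO replicate 2, 1 with the 4 resistant libraries alone and 0 with no variance trend, against 30 rises and 4 falls with voom. Glycolysis genes had 6 falls and 2 rises among 28, with PKM (-0.24) and HK1 (-0.24) lower and VEGFA, a hypoxia and ATF4 target kept on the list (0.43), higher. Without 1 library the glycolysis falls numbered 2, 1, 1 and 1 and the rises 1, 1, 1 and 1. PRDX1, a peroxiredoxin (-0.33), was among 4 falls on the NRF2 list, beside 5 rises such as SQSTM1 (0.33), out of 24. Its rises numbered 2, 1, 1 and 1 without 1 library.

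Signalling and lineage lists had few calls each, to be read against 6.85% raised and 6.26% lowered over all genes. TNF was at 35.3 and 35.01 FPKM with DMSO and 51.1 and 49.9 FPKM with DAC (0.51 ± 0.036 SE, adjusted p = 0.0012). On its list of 17 inflammatory genes, RELB (0.44) and TNFAIP2 (0.30) also rose and IER3, which is on the ERK list too, fell (-0.46). ETV4 (0.53) and ETV5 (0.53), transcription factors downstream of ERK, rose among 11 genes of that output, while JUN (-0.23), JUND (-0.28) and IER5 (-0.23) fell and KLF10 rose (0.25) among 19 immediate early genes. RARA, the retinoic acid receptor, was at 8.83 and 8.599 FPKM with DMSO and 10.2 and 10.9 FPKM with DAC (0.25 ± 0.057 SE, adjusted p = 0.039). It was among 2 rises in 9 retinoid genes. Myeloid transcription factors had 4 rises among 26, namely CEBPB (0.32), HOXA9 (0.23), RUNX3 (0.21) and FLI1 (0.20). Surface receptors of monocytes had 3 rises, with CSF2RA at 0.42, and 2 falls, CCR1 (-0.33) and CCR2 (-0.29), among 26. Of 39 granule and lysosomal genes 9 fell and 2 rose, with S100A4 from 249 and 237 to 187 and 173 FPKM (-0.43) and RNASE2 from 389.9 and 401 to 302 and 334 FPKM (-0.31). These falls include RNASE6 (1.61 and 1.93 FPKM with DMSO and 0.557 and 0.774 FPKM with DAC), which reached 1 FPKM only with DMSO, so that its place among the measured genes fixed its direction. Without 1 library the rises numbered 2, 3, 2 and 3 for inflammatory genes, 1, 1, 1 and 1 for ERK output, 0, 0, 0 and 0 for retinoid genes and 1, 1, 1 and 2 for myeloid factors. Falls then numbered 0, 1, 0 and 1 for inflammatory genes and 0, 0, 0 and 1 for ERK output. Immediate early genes had 1, 0, 0 and 1 rises and 1, 0, 0 and 1 falls, with no call from the 4 resistant libraries alone. Granule and lysosomal genes had 4, 3, 3 and 3 falls and 1 rise each time. Monocyte receptors had 1, 1, 1 and 0 rises and 2, 1, 1 and 0 falls.

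Of 25 p53 targets 5 rose, where 6.85% of all genes did. They were GDF15 (0.592 and 0.51 FPKM with DMSO and 1.61 and 1.19 FPKM with DAC, 0.62), SESN2, GADD45A (0.44), PPM1D (0.25) and the TRAIL receptor TNFRSF10B (0.22), of which SESN2 is on the ATF4 list as well. GDF15 reached 1 FPKM only with DAC, so its place among the measured genes fixed its direction. Of 26 apoptosis regulators, TNFRSF10B rose and BCL2, the inhibitor, fell from 26.6 and 26.8 to 21.8 and 22.6 FPKM (-0.26), a smaller share each way than over all genes (6.85% and 6.26%). Class I antigen presentation was divided, with B2M (0.21), CANX (0.15) and PSMB9 up and CALR, TAPBP (-0.16) and PDIA3 (-0.13) down among 16. Imprinted genes had 1 call among 9, GRB10 (0.22), and the 2 clustered protocadherin genes measured had 1, PCDHGC3 (-0.23). Without any 1 library the p53 list had 2 rises, the rise of TNFRSF10B and the calls of GRB10 and PCDHGC3 were lost, and class I presentation had 2, 1, 2 and 2 rises and 2, 1, 1 and 1 falls. With limma, 0 genes were called among 34 KRAB zinc finger genes of chromosome 19, 7 class II antigen presentation genes, 7 canonical histones, 5 cancer-testis genes and 4 metallothioneins. At an unadjusted p under 0.05 the KRAB list had 9 higher and 1 lower, the class II list 1 lower, the cancer-testis list 1 each way, the metallothioneins 2 higher and the histones 0. With voom on recovered reads, 4 KRAB genes, 2 metallothioneins and 1 cancer-testis gene rose, 1 cancer-testis gene fell, and the class II and histone lists had 0. Other limma settings called up to 4 rises among the KRAB genes (protein-coding rescaling), up to 2 among the metallothioneins and 1 among the cancer-testis genes.

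The same 6 days of DAC changed more genes in parental cells. Of the 12692 genes, 4169 (32.8%) rose and 3290 (25.9%) fell in parental cells, with a median size of 0.44. The parental and resistant comparisons share no library, and over all 12692 genes, which are not independent, Pearson's r between their effects was -0.12. Of the 869 genes raised in resistant cells, 214 rose and 445 fell in parental cells, that is 24.6% and 51.2% of them, or 5.13% and 13.5% of the parental lists. Of the 794 lowered genes, 424 rose and 206 fell there (53.4% and 25.9%, or 10.2% and 6.26% of the parental lists). The difference between the effects passed its own test for 6442 genes (50.8%), 692 of the raised and 649 of the lowered among them.

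Most ATF4 and interferon genes called in resistant cells were called in the opposite direction in parental cells. On these lists 3 ATF4 and 2 interferon genes were called in the same direction in both lines. On the ATF4 list 39 of 45 fell in parental cells (median -0.90), the effect differed in 39, and 23 of the 26 rises were falls there. TRIB3 had a parental mean of 35.6 FPKM with DMSO and 15.8 with DAC, so the effects differed by 2.76 ± 0.104 SE, adjusted p = 5.2e-06. In parental cells the difference was -1.84 for DDIT4 and -2.74 for PSAT1, both falls. On the interferon list 69 of 70 rose in parental cells (median 2.26) and the effect was lower in resistant cells in 68. All 39 that fell in resistant cells rose in parental ones. OAS3 went from a parental mean of 3.04 to 61.5 FPKM, against 7.89 to 4.31 in resistant cells, a difference between the effects of -4.70 ± 0.056 SE, adjusted p = 1.3e-07. IFI6 went from 19.9 to 558 in parental cells.

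Sterol genes mostly moved the same way in both lines. Of the 21 that fell in resistant cells, 20 fell in parental cells, where the list median was -0.58. The effect still differed in 20 of 29, higher in resistant cells in 18 and lower in 2. The fall was smaller in resistant cells for FASN (-0.66 against -1.03, a difference of 0.38 ± 0.051 SE, adjusted p = 0.0012). It was larger there for MVD (-0.75 against -0.37, a difference of -0.38 ± 0.124 SE, adjusted p = 0.041), and the effects on LSS (-0.56 and -0.55) did not pass the test of their difference (-0.01 ± 0.057 SE, adjusted p = 0.89). Replication genes had a parental median of -0.20 with 27 falls, 15 of them shared with the 25 in resistant cells, but FEN1 (0.13, adjusted p = 0.06) and POLD1 (-0.05, adjusted p = 0.15) did not pass in parental cells. In the heat shock list 20 of 21 effects differed, and HSPA8 rose by 0.51 in parental cells. CALR rose by 1.54 there, a difference of -2.32 ± 0.028 SE, adjusted p = 1.3e-07. The ribosomal protein genes fell in 78 of 79 cases in parental cells (median -1.04), against a median of 0.04 in resistant cells, and the effect differed in 79 of them.

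Transcript GC content moved with these small differences. Over the 10514 protein-coding genes the median GC of the longest transcript was 47.6%, against 43.1% for the 806 raised and 52.9% for the 739 lowered. Across genes, which are not independent, Spearman's rho between GC and the log2 difference was -0.28. The same measure for DMSO replicate 1 minus replicate 2 was 0.25, and for DAC replicate 1 minus replicate 2 it was 0.19, so libraries of 1 group differed along GC too. In the 10 GC bins the median difference ran from 0.071 in the lowest to -0.071 in the highest. After each library was adjusted for GC, 734 genes rose (5.79%) and 774 fell (6.1%), 644 and 659 of them among the calls given above, and no called gene changed sign. Of the genes given here as risen or fallen, CENPM, DHX58, JUND, PCDHGC3, TRIM28, CMPK1, DCTD, FLI1, IARS1 and PPM1D no longer passed, with adjusted p-values of 0.053 (JUND, DCTD) to 0.14 (TRIM28). The list medians were then 0.25 for ATF4, -0.27 for interferon, -0.31 for cholesterol, -0.25 for replication and -0.27 for heat shock, with 26 rises and 39, 21, 26 and 13 falls.

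Small RNA and immunoglobulin genes made up most of the called changes of at least 2-fold on the log2(FPKM + 1) scale. Of 244 small RNA genes 12 rose and 14 fell, against 6.85% raised and 6.26% lowered over all genes. Of 21 immunoglobulin or T cell receptor genes 3 rose (IGLC2, IGLC3 and IGHA1). All 3 reached 1 FPKM only with DAC, so the filter fixed their direction. IGLC2 had 1 and 0 reads with DMSO and 178 and 291 with DAC, but IGHG1, which had more reads, overlapped between the groups (15 and 468 with DMSO, 1065 and 465 with DAC), and IGKC (12 and 434, then 807 and 457) differed widely between the DMSO libraries. Reads on immunoglobulin genes came to 338 and 1241 with DMSO and 3187 and 2166 with DAC. Some variable genes were seen in a single resistant library, with IGKV4-1 at 264 reads in DAC replicate 1, IGLV1-44 at 200 reads in DAC replicate 2 and IGHV2-5 at 47 reads in DMSO replicate 2, each with 0 reads in the other 3 resistant libraries. These genes were named after their values were seen. The source of these reads was not tested.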

How the data were processed

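The 8 RNA-seq libraries cover 2 THP-1 lines, parental and DAC-resistant, each with DMSO or DAC and 2 libraries a group. Per the submitters' processing notes and the study's methods, reads were trimmed (cutadapt 1.9.1), aligned to hg38 (HISAT2 2.1.0), sorted (SAMtools 1.6) and counted (HTSeq 0.13.5), and quality was inspected with FastQC. The authors deposited 1 table of FPKM values multiplied by 1000, which was divided back. Strand use in counting is not given in the sources used here. The 1264 rows of repeat families were not used, and gene names came from GENCODE 44, which lists 60463 of the 60664 gene IDs. Whole reads per gene were recovered from the FPKM steps, with 87.1% of gene values within 0.02 of a whole number. They give the depth, and served voom as an alternative.

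Of all genes, 14899 reached 1 FPKM in 2 or more of the 8 libraries. They entered limma as log2(FPKM + 1), using limma 3.58.1 (R 4.3.3) with a variance trend, 4 group means and contrasts for DAC against DMSO in each line and for the difference between them. Benjamini-Hochberg adjustment ran over all 14899 genes, and a gene was called at an adjusted p under 0.05. A fold change on this scale understates that of low genes. The fit has 4 residual and 2.5 prior degrees of freedom. Genes named are the 10 largest called rises and the 10 largest falls among protein-coding genes of at least 5 FPKM on average, up to 4 called genes with the largest change in each list, genes the study is about, and defining genes of the lists. Some of these genes are not reported here. Members and gene lists were chosen with earlier results of these data known. The main fit did not pair libraries by replicate number. Alternatives covered the pseudocount, filters, 5 scalings, the libraries fitted, the variance trend, a replicate block, voom, other thresholds and each library left out.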

Additional observations from a re-analysis of the deposited data

Results flagged for a closer look

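The DAC effect differed between resistant and parental cells, by limma's test of the difference itself, in 6442 of 12692 genes (50.8%), and 869 genes were called in both lines with opposite signs. By list, the effect differed in 39 of 45 ATF4 genes, 68 of 70 interferon-stimulated genes, 20 of 21 heat shock genes, 20 of 26 ER chaperone and unfolded protein response genes and 20 of 29 cholesterol genes. It differed in 7 of 13 mitochondrially encoded mRNAs and 21 of 48 replication genes, shares near or under that of all genes. The resistant libraries enter both the choice of called genes and this test.

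Of the genes with the largest changes in resistant cells, 11 also had opposite signs in parental cells. The effect in resistant cells minus that in parental cells, on the log2 scale, was 2.76 for TRIB3, 2.40 for ADM2, 2.24 for SPNS3, 1.98 for ORM1 and 1.9 for PCK2. It was -5.46 for IFI6, -4.70 for OAS3, -2.32 for CALR, -2.05 for TMED9, -1.60 for SDF2L1 and -1.36 for HSPA8.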

How the results depend on the processing

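No alternative called a gene in the direction opposite to its call, and 1 called gene changed sign in 1 setting (MT-CO3 under quantile normalization). The counts moved more. Raised and lowered genes numbered 396 and 363 with no filter, 231 and 195 with the 4 resistant libraries alone, 521 and 453 with no variance trend, and 1549 and 1375 with voom. Rescaling over protein-coding genes gave 1594 raised. Thresholds of unadjusted p at most 0.01 with at least 2-fold gave 17 and 17, and adjusted p with a log2 change of at least 0.26 gave 478 and 448. Leaving out 1 resistant library gave 213 to 301 raised and 218 to 322 lowered. Rescaling over protein-coding genes without mitochondrial genes, chosen after seeing the data like the GC adjustment, gave 1114 and 1054, and it gives no value for the mitochondrial list. The causes of these changes in the counts were not tested.

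A fit with replicate number as a block called 456 raised and 459 lowered genes. Deviations of same-numbered libraries correlated at -0.012 in resistant and 0.004 in parental cells. These values over all genes cannot show whether same-numbered libraries were handled together. Along GC, replicate 1 minus replicate 2 had the same sign in both resistant groups, with a rho of 0.25 for DMSO and 0.19 for DAC. Whether the numbers pair the libraries was not tested further.

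List medians kept their sign in every setting for the 5 lists with the most calls for their size. The interferon median was -0.29 with a pseudocount of 0.1 and with voom, -0.23 as TPM, -0.22 over protein-coding genes, -0.27 after GC adjustment, and -0.25 to -0.23 without 1 library. For replication it was -0.28 with a pseudocount of 0.1, -0.29 with voom, -0.21 as TPM and over protein-coding genes, and -0.26 to -0.21 without 1 library. Cholesterol gave -0.26 as TPM, -0.25 over protein-coding genes and -0.29 to -0.26 without 1 library. ATF4 gave 0.26 as TPM, 0.27 over protein-coding genes, 0.25 after GC adjustment and 0.21 to 0.26 without 1 library. Heat shock gave -0.23 as TPM, -0.22 over protein-coding genes, -0.27 under upper-quartile, median-of-ratios and quantile scaling, without mitochondrial genes and after GC adjustment, and -0.26 to -0.25 without 1 library. Counts of calls fell when a library was left out, to 9 to 11 falls for heat shock and as given with each of the other 4 lists.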
